A study of Mus musculus with 24 samples.

Results

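Immediate early genes are transcribed within minutes of a stimulus by factors that are already in the cell, and most of their RNAs are short-lived. A group of 10 such genes was followed here: Fos, Fosb, Jun and Junb, which encode subunits of the transcription factor AP-1, Egr1, Atf3, Ier2 and Ier3, the phosphatase gene Dusp1 and the cyclooxygenase gene Ptgs2. The 10 genes, of 19938 measured, were named by symbol and were chosen by a reading of earlier results of these arrays. Which values were used is not stated, and all values of the undifferentiated arrays, where Fosb and Fos ranked at the top of the knockdown comparison, were treated as used. Each of the 10 symbols had 1 probe set, so no set had to be chosen among several. For the 10 genes, comparisons that use the undifferentiated arrays are therefore given as levels and differences with no p-value. Their other comparisons, and those of genes outside the 10, carry the adjusted p of a limma fit across all 19938 genes. The related lists were also chosen with earlier results known, so their counts are descriptions.

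D3, a mouse embryonic stem cell line, was used throughout. Prmt1, the gene of the main enzyme for asymmetric arginine dimethylation, was knocked down in them (siPRMT1), or they received a scrambled sequence (siSCR). Both lines were sampled in 4 states: undifferentiated (ES), as 4-day-old aggregated embryoid bodies, and as embryoid bodies with either of 2 treatments. The treated bodies, for which day 4 is also given, had 12 h with the vehicle DMSO or with all-trans retinoic acid (ATRA, 5 micromol). The 8 groups were siPRMT1 and siSCR ES cells, siPRMT1 and siSCR day 4 bodies, siPRMT1 and siSCR bodies with DMSO, and siPRMT1 and siSCR bodies with ATRA, with 3 arrays each. All cells were passaged on gelatin to remove feeder cells, and bodies were formed without the cytokine LIF. Sources used here do not say whether the knockdown was stable or came from 1 clone. The labels call the arrays biological replicates without naming separate cultures, so p-values measure only the spread between these arrays.

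FOS proteins pair with JUN proteins through a leucine zipper, and the dimer binds sites that fall within the pattern TGANTCA. In the search below N could be any base, which is wider than the bound site. JUN can also act without FOS, whereas FOS cannot bind DNA as a homodimer. Growth factors and stress reach these genes through kinases of the ERK, JNK and p38 families, the serum response factor SRF, which binds the CArG box, and CREB, which binds TGACGTCA. DUSP1 removes the activating phosphates from those kinases, which makes it a feedback inhibitor. In embryonic stem cells, ERK signalling driven by FGF4 is known for its part in the exit from pluripotency.

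The targeted gene followed the labels. Prmt1 had log2 values of 9.60 to 9.79 in siPRMT1 ES cells, against 10.95 to 11.10 in siSCR ES cells, and stood at 38.6% of control there, 64.55% at day 4, 46.2% with DMSO and 36.7% with ATRA. Embryoid body markers were higher at day 4 than in ES cells for 9 of 9 measured genes in siPRMT1 and 8 of 9 in siSCR, while markers of undifferentiated cells were 0 higher and 5 lower of 8 in siPRMT1 and 1 higher and 2 lower in siSCR, Klf4 by -1.32 and -0.52 in these lines. The 6 siSCR arrays with DMSO or ATRA lay far from the remaining 18: principal component 1, with 52.2% of the variance, placed them at 50.1 to 61.2, against -26.8 to -9.44. Their SD over genes was also smaller, 1.98 to 2.07 against 2.15 to 2.27. The labels give no batch, so in comparisons that set these 6 against other arrays this border and the groups cannot be told apart.

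In undifferentiated cells, the question was how the genes stood in siPRMT1 against siSCR before differentiation. Fosb and Fos stood further above control than any other of the 19938 genes. Fos had log2 values of 11.54, 11.63 and 11.57 in siPRMT1 ES cells, against 9.70, 9.58 and 9.67 in siSCR ES cells. The groups were far apart, with a difference of 1.93 ± 0.11 (log2, standard error of the fit, n = 3 arrays per group), or 3.81-fold, second of all genes. Fosb, the gene of a close relative of FOS, had 10.86, 10.87 and 10.72 in siPRMT1 ES cells, against 8.18, 8.37 and 8.23 in siSCR ES cells. Its difference of 2.56 ± 0.097, or 5.90-fold, ranked first. Atf3, a stress-induced factor that binds CREB-type sites, had 10.27, 10.22 and 10.18 in siPRMT1 ES cells, against 8.90, 8.97 and 9.03 in siSCR ES cells. It ranked seventh, 1.26 ± 0.077 higher.

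Dusp1 had 12.71, 12.77 and 12.77 in siPRMT1 ES cells, against 11.84, 12.01 and 11.96 in siSCR ES cells. This phosphatase gene was thus 0.81 ± 0.071 higher, at rank 34 from the top. The remaining differences were smaller. Jun, which encodes the main partner of FOS, had 10.92, 10.81 and 10.77 in siPRMT1 ES cells, against 10.38, 10.27 and 10.36 in siSCR ES cells, a difference of 0.50 ± 0.089. Ier2, a nuclear protein gene, was higher by 0.38 ± 0.10 and Egr1, a zinc finger factor, by 0.32 ± 0.092. For Jun, Ier2 and Egr1 all siPRMT1 arrays lay above all siSCR arrays. The 3 other members did not follow. Junb overlapped, at 9.42, 9.06 and 9.21 in siPRMT1 ES cells, against 8.97, 8.99 and 9.12 in siSCR ES cells. Ptgs2, which encodes the inducible enzyme of prostaglandin synthesis, was lower, at 11.18, 11.19 and 11.14 in siPRMT1 ES cells, against 11.55, 11.54 and 11.48 in siSCR ES cells. Ier3, a survival factor gene, was lower by 0.24 ± 0.15, with arrays that did not overlap.

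At an adjusted p under 0.05, 7 members counted as higher and 1 as lower in undifferentiated siPRMT1 cells, where 18.8% of all genes were called, 7.63% higher and 11.2% lower. Since this comparison was in view when the genes were named, nothing is read from that count. The median member difference was 0.44, against 0.0061 over all genes. Egr1 and Ier2 were near the limit of the call, which Egr1 lost when any of 3 arrays was left out and Ier2 when any of 2 was left out. Both kept their direction each time.

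**Figure D1:**
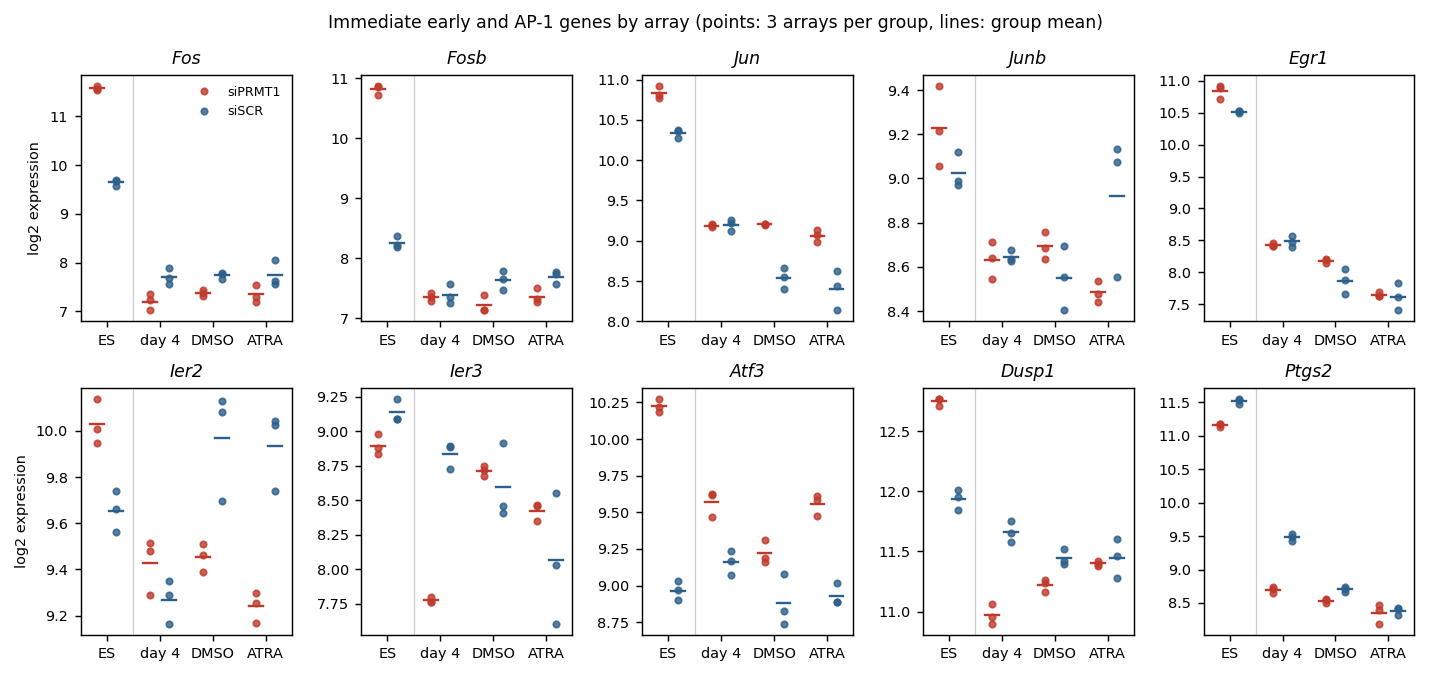
Log2 expression of the 10 genes on each array, with 1 panel per gene and siPRMT1 (red) left of siSCR (blue) in each state. Points are the 3 arrays of a group and short lines their mean; each panel has its own vertical range, which does not start at 0. Fos, Fosb, Egr1 and Ptgs2 drop steeply between ES cells and day 4 bodies, and 8 of the 10 genes have their largest SD in siSCR bodies with DMSO or ATRA, Fosb and Ptgs2 being the exceptions.

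The promoters of the 4 genes furthest above control in ES cells are shown to see which sites they share. RefSeq windows of 250 bases before the start site were searched for 8 of the 10 genes. Egr1 and Ier2 were not searched, so the counts below say nothing about their promoters. Capitals mark TGACG, the core of the CREB and ATF site, on either strand (CGTCA is the same site read on the other strand), and the full palindrome TGACGTCA, which holds it on both strands. Sequences run 5′ to 3′ in the direction of the gene, in build GRCm38.p6.
Fos (chr12:85473640-85473889, plus strand): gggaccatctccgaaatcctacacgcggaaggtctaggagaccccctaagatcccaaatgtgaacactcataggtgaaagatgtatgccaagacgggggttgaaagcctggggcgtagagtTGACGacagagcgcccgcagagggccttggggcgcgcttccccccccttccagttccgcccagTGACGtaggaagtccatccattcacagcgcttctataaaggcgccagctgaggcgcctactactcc
Fosb (chr7:19310046-19310295, minus strand): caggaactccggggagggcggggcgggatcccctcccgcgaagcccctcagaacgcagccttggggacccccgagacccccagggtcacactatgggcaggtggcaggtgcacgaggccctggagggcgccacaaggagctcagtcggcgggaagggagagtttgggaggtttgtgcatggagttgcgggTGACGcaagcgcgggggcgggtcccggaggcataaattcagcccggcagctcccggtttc
Atf3 (chr1:191183334-191183583, minus strand): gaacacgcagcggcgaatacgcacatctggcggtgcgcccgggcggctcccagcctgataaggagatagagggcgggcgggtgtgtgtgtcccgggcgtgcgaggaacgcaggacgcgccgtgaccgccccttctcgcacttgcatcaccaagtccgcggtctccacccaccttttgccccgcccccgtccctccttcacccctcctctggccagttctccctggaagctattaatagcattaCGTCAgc
Dusp1 (chr17:26508473-26508722, minus strand): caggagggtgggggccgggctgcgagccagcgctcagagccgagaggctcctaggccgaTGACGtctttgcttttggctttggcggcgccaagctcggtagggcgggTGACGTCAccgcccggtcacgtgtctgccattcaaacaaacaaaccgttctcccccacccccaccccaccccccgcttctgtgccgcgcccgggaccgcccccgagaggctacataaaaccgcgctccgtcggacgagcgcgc
All 4 windows hold TGACG, as does that of Junb, so that 5 of 8 windows held it, against 17.8% of 32851 promoter windows of the same length. In Fos 1 copy lies 62 to 66 bases before the start and the other 125 to 129 bases before it, and in Fosb the copy lies 56 to 60 bases before it. The palindrome TGACGTCA was found in Dusp1, 136 to 143 bases before the start, and in 1.55% of all windows. Neither TGANTCA (6.75% of all windows) nor the CArG box (1.47%), searched on both strands, matched in any of the 8 windows, which says only that these letters are not within 250 bases. Jun, Ier3 and Ptgs2 held no TGACG. Also searched were TATAAA, found in Fos and in 12.4% of all windows, and GCGNGGGCG, found in Fosb and in 4.7%. The 4 genes were picked by their ES difference, and the 32851 windows were not matched to theirs in base composition. The shares are therefore given for orientation, and no enrichment is read from them. A match in letters is a description and was not tested as a binding site.

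Genes related to the members moved less evenly in undifferentiated cells. Of 30 other immediate early genes, 12 were higher, 6 lower and 12 not called, with a median of 0.078. The matrix protein gene Ccn2 rose by 0.91 ± 0.071 (limma adjusted p = 2.58e-08) and Rhob, a small GTPase gene, by 0.66 ± 0.10 (adjusted p = 0.000108). Lif, the gene of the cytokine that sustains mouse embryonic stem cells, fell by 1.00 ± 0.10 (adjusted p = 6.3e-07). Of 13 other AP-1 subunits and partners, 3 were higher, 2 lower and 8 not called. Jund (0.41 ± 0.063, adjusted p = 8.67e-05) and Jdp2, which encodes a repressor of AP-1 (0.48 ± 0.081, adjusted p = 0.000232), were higher, and Fosl1, the gene of FRA1, was lower (-0.67 ± 0.14, adjusted p = 0.00128). Among 8 EGR and NR4A genes 2 were higher and 2 lower. Nr4a1, an orphan nuclear receptor gene of immediate early type, rose by 0.59 ± 0.057 (adjusted p = 4.4e-07) and Egr2 by 0.41 ± 0.10 (adjusted p = 0.00751).

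Most genes classically described as AP-1 targets were lower where Fos and Fosb were higher, and AP-1 activity itself was not measured. Of 13 measured, 9 were lower in siPRMT1 ES cells, 1 was higher and 3 were not called, with a median of -0.27 against 0.0061 over all genes. The stromelysin gene Mmp3 had a mean of 8.05 in siPRMT1 ES cells, against 9.44 in siSCR ES cells, a difference of -1.39 ± 0.092 (adjusted p = 3.74e-09), and the urokinase gene Plau fell by 0.92 ± 0.11 (adjusted p = 2.83e-06). Of 12 early NF-kappaB genes 4 were lower and 0 higher, led by the chemokine gene Ccl2 (-1.07 ± 0.10, adjusted p = 3.28e-07). In the prostaglandin pathway the phospholipase gene Pla2g4a (-0.86 ± 0.14, adjusted p = 0.00018) and the synthase gene Ptges (-0.27 ± 0.068, adjusted p = 0.00814) were lower, as Ptgs2 was, and 9 of 11 genes were not called. Of 17 genes for SRF, CREB and the kinases upstream, 0 were higher and 4 lower, none by more than Map2k2 (-0.32 ± 0.073).

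Fibroblast and feeder markers moved in the same arrays. Of 17 measured, 11 were lower in siPRMT1 ES cells, 0 were higher and 6 were not called. Their mean level per array was 8.76 to 8.85 in siPRMT1 ES cells and 9.18 to 9.22 in siSCR ES cells, and 7.76 to 8.17 over all arrays of embryoid bodies. On this scale no gene is at 0, and Lum was the dimmest marker, with means of 4.93 in siPRMT1 and 4.68 in siSCR ES cells. Timp1 stands on this list and on that of AP-1 targets. The part of such cells in the differences of the 10 genes and of the AP-1 targets was not tested. In bulk RNA fewer cells of a type and less RNA per cell cannot be told apart. Embryoid body markers were 3 higher and 0 lower of 9 in siPRMT1 ES cells, led by Gata4 (0.46 ± 0.074, adjusted p = 0.000132). Markers of undifferentiated cells were 3 higher and 1 lower of 8, led by Klf4 (0.55 ± 0.12, adjusted p = 0.00233). The part of these cell states in the ES differences was not tested. Of 10 heat shock and handling genes, 0 were higher and 3 lower in siPRMT1 ES cells, the largest fall being that of Hsph1 (-0.45 ± 0.048, adjusted p = 1.38e-06).

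**Figure D2:**
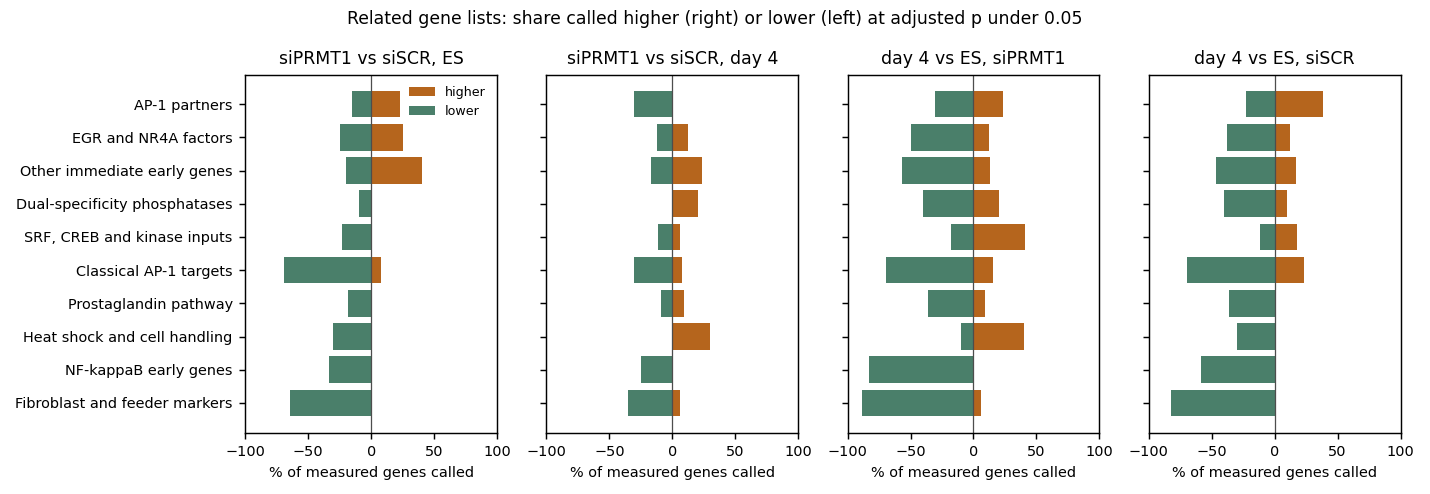
Share of the measured genes of each related list called higher (right, brown) or lower (left, green) at an adjusted p under 0.05, in 4 comparisons. In ES cells 9 of 13 AP-1 targets and 11 of 17 fibroblast markers were lower in siPRMT1, while 12 of 30 other immediate early genes were higher.

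Between ES cells and day 4 bodies the members dropped in both lines, further in siPRMT1. All 10 were lower at day 4 in siPRMT1, with no overlap of arrays for any of them, as 28.9% of all genes were, and 9 of 10 were lower in siSCR, Atf3 being the exception. At an adjusted p under 0.05, 10 members counted as lower in siPRMT1, where 41.4% of all genes were called (23% higher and 18.4% lower), and 8 in siSCR, where 28.2% were called (14.5% higher and 13.7% lower). These comparisons share the ES arrays, so these counts too are description.

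Fos had 7.22, 7.34 and 7.02 in siPRMT1 day 4 bodies, against 11.54, 11.63 and 11.57 in siPRMT1 ES cells, a difference of -4.38 ± 0.11, and at day 4 it stood at 4.80% of the ES level. In siSCR it had 7.56, 7.89 and 7.67 at day 4 and stood at 26.0% of the ES level. Fosb was at 9.06% of the ES level in siPRMT1 and 54.9% in siSCR. Among all genes, Fos and Fosb showed the deepest drops in siPRMT1, first and second from the bottom. The order of the lines was thus not the same in both states: Fos was highest in siPRMT1 ES cells and lowest in siPRMT1 day 4 bodies.

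Egr1 and Ptgs2 were far lower at day 4 in both lines. Egr1 had 8.46, 8.41 and 8.41 in siPRMT1 day 4 bodies, which is 18.7% of the siPRMT1 ES level, and 8.40, 8.47 and 8.58 in siSCR day 4 bodies, which is 24.4%. Ptgs2 was at 18.0% of the ES level in siPRMT1 and 24.3% in siSCR. Dusp1 differed more between the lines, at 29.1% in siPRMT1 and 82.6% in siSCR. Jun was at 32.0% in siPRMT1 and 45.4% in siSCR. Atf3 had 9.62, 9.63 and 9.47 in siPRMT1 day 4 bodies, below its ES values there, and 9.07, 9.17 and 9.23 in siSCR day 4 bodies, just above its ES values there.

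The log2 change from ES cells to day 4 in siPRMT1, minus the same change in siSCR, was below 0 for all 10 members. It ranged from -2.60 ± 0.14 for Fosb to -0.22 ± 0.14 for Ier2. For Fosb, Fos and Dusp1 this difference was more than 2-fold on the linear scale, -2.44 ± 0.16 for Fos and -1.502 ± 0.10 for Dusp1. At an adjusted p under 0.05, 8 members counted as lower, where 23.8% of all genes were called, 15% higher and 8.83% lower. This value is also the line difference at day 4 minus that in ES cells, for Fosb -0.038 minus 2.56. It thus holds the ES difference that was in view when the genes were named, and the count is description.

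**Figure D3:**
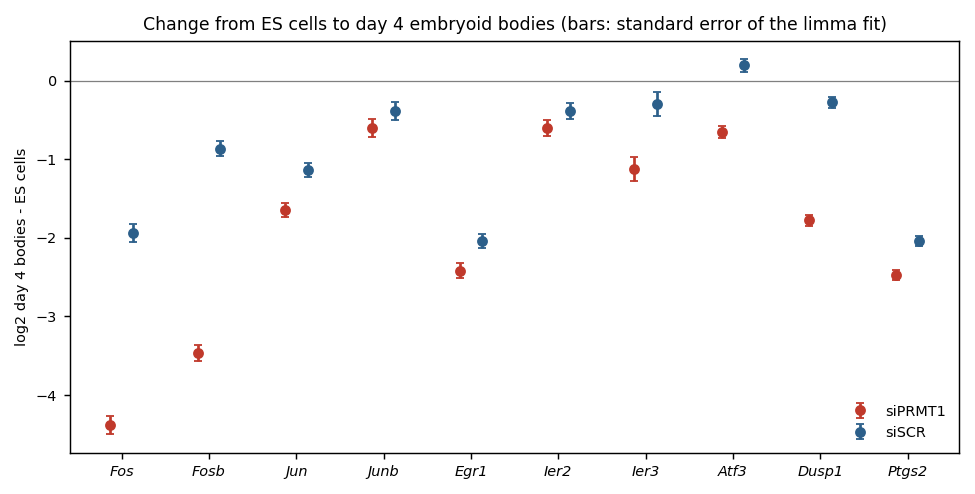
Log2 difference of day 4 bodies minus ES cells for each gene in siPRMT1 (red) and siSCR (blue), with the standard error of the limma fit. Fos reaches -4.38 in siPRMT1 and -1.94 in siSCR, and Atf3 is the gene whose sign differs, at -0.65 in siPRMT1 and 0.19 in siSCR.

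Related lists were mixed at day 4. Of 30 other immediate early genes, 17 were lower and 4 higher in siPRMT1, and 14 lower and 5 higher in siSCR. In siPRMT1 Gadd45b, a stress-response gene, fell by 1.52 ± 0.099 (adjusted p = 1.14e-10) and Zfp36, which encodes an RNA-decay factor, by 1.29 ± 0.14 (adjusted p = 2.26e-07). AP-1 targets were 9 lower and 2 higher of 13 in siPRMT1, and 9 lower and 3 higher in siSCR, where Plau fell by 2.32 ± 0.11 (adjusted p = 5.37e-13). Early NF-kappaB genes were 10 lower and 0 higher of 12 in siPRMT1, and 7 lower and 0 higher in siSCR. AP-1 partners were 4 lower and 3 higher of 13 in siPRMT1, and 3 lower and 5 higher in siSCR. Genes for SRF, CREB and the kinases were 3 lower and 7 higher of 17 in siPRMT1, and 2 lower and 3 higher in siSCR. Heat shock genes were 1 lower and 4 higher of 10 in siPRMT1, and 3 lower and 0 higher in siSCR. Fibroblast markers were 15 lower and 1 higher of 17 in siPRMT1, and 14 lower and 0 higher in siSCR. Pla2g4a and Ptges, which act before and after Ptgs2 in prostaglandin synthesis, fell in both lines. For Pla2g4a the difference was -1.66 ± 0.14 in siPRMT1 (adjusted p = 7.6e-09) and -2.38 ± 0.14 in siSCR (adjusted p = 3.81e-11).

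At day 4 the knockdown comparison was tested, although its results too were known when the genes were named. The picture seen in ES cells was not repeated. Of the 10 members, 4 were lower in siPRMT1, 1 was higher and 5 were not called, where 18.4% of all genes were called, 11.4% higher and 7.01% lower. Ptgs2 had 8.73, 8.65 and 8.71 in siPRMT1 day 4 bodies, against 9.53, 9.49 and 9.43 in siSCR day 4 bodies, a difference of -0.78 ± 0.060 (adjusted p = 1.28e-08). Ier3 had 7.76, 7.76 and 7.79 in siPRMT1 day 4 bodies, against 8.72, 8.90 and 8.89 in siSCR day 4 bodies, and was 1.06 ± 0.15 lower (adjusted p = 4.15e-05). Both genes showed a gap many times the spread of the arrays, and Ier3 was 16th from the bottom of all genes.

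Dusp1 had 10.95, 11.06 and 10.90 in siPRMT1 day 4 bodies, against 11.58, 11.65 and 11.75 in siSCR day 4 bodies, and fell by 0.69 ± 0.071 (adjusted p = 6.86e-07). Fos was lower by 0.51 ± 0.11 (adjusted p = 0.0029), with no overlap of arrays. For both genes this is the opposite direction to ES cells. Atf3 was higher by 0.41 ± 0.077 (adjusted p = 0.000565), as it was in ES cells, with all 3 siPRMT1 arrays above all siSCR arrays. Fosb (-0.038 ± 0.097, adjusted p = 0.843), Jun (-0.0096 ± 0.089, adjusted p = 0.961), Junb (-0.013 ± 0.11, adjusted p = 0.96), Egr1 (-0.058 ± 0.092, adjusted p = 0.733) and Ier2 (0.16 ± 0.10, adjusted p = 0.323) overlapped between the lines. The 5 calls held in every alternative setting and with each array left out.

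Among related genes at day 4, AP-1 partners were 0 higher and 4 lower of 13, led by the small MAF gene Maff (-0.46 ± 0.066, adjusted p = 3.9e-05). Other immediate early genes were 7 higher and 5 lower of 30. Gadd45b fell by 0.93 ± 0.099 (adjusted p = 1.05e-06), and Plk2, a polo-like kinase gene, rose by 0.65 ± 0.074 (adjusted p = 2.46e-06). Of 10 other dual-specificity phosphatases 2 were higher and 0 lower, Dusp4 by 0.65 ± 0.096 (adjusted p = 5.66e-05) and Dusp9 by 0.41 ± 0.067 (adjusted p = 0.000163). These moved against Dusp1. Fibroblast markers were 1 higher and 6 lower of 17, with a mean level per array of 7.88 to 7.90 in siPRMT1 and 8.02 to 8.17 in siSCR day 4 bodies. Embryoid body markers moved in the same arrays, 7 higher and 0 lower of 9 with a median of 0.76, led by Fgf5 (1.37 ± 0.11, adjusted p = 2.12e-08), and markers of undifferentiated cells were 0 higher and 3 lower of 8. The part of these cell states and cell types in the day 4 differences was not tested.

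**Figure D4:**
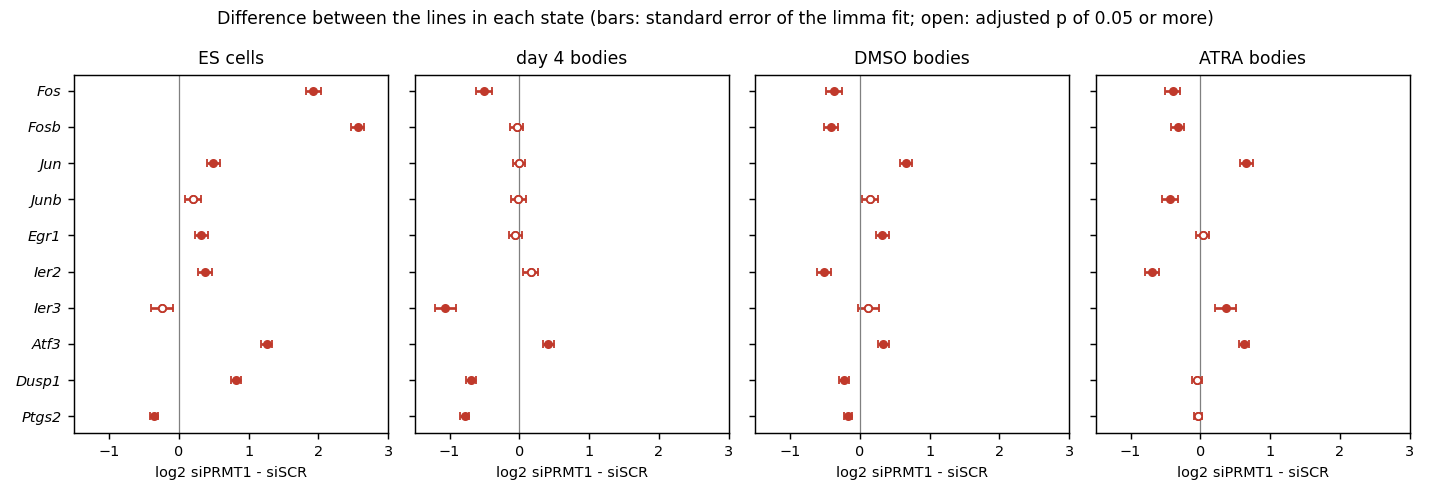
Log2 difference of siPRMT1 minus siSCR for each gene in the 4 states, with the standard error of the limma fit. Filled points had an adjusted p under 0.05 and open points did not; Fos and Fosb lie far to the right in ES cells and at or left of 0 in all embryoid bodies, while Atf3 lies right of 0 in each state.

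With DMSO or ATRA, the knockdown comparison sets the 6 siSCR arrays that stood apart against siPRMT1 arrays. With DMSO 3 members were higher and 5 lower, where 65.9% of all genes were called (31.3% higher and 34.6% lower). With ATRA 3 were higher and 4 lower, where 70.1% were called (32.2% higher and 38% lower), so calls here were common among all genes. Embryoid body markers were 8 higher and 0 lower of 9 with DMSO (median 1.29) and with ATRA (median 0.94), and their part in the differences was not tested. The median over all genes was -0.090 with DMSO and -0.11 with ATRA, and centring arrays on their medians moved it to 0.017 and 0.026. Jun had 9.21, 9.20 and 9.20 in siPRMT1 DMSO bodies, against 8.66, 8.55 and 8.41 in siSCR DMSO bodies, and was 0.66 ± 0.089 higher (adjusted p = 1.53e-06). With ATRA the Jun difference was also 0.66 ± 0.089 (adjusted p = 1.65e-06). Ier2 had 9.39, 9.51 and 9.46 in siPRMT1 DMSO bodies, against 9.70, 10.13 and 10.08 in siSCR DMSO bodies, and was 0.52 ± 0.10 lower (adjusted p = 0.000175).

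With ATRA, Ier2 was 0.69 ± 0.10 lower (adjusted p = 5.08e-06). Atf3 was again higher in siPRMT1, by 0.34 ± 0.077 with DMSO (adjusted p = 0.000749) and 0.63 ± 0.077 with ATRA (adjusted p = 4.55e-07), although with quantile normalization its DMSO difference was 0.15 and not called (adjusted p = 0.102). Fos was lower by 0.37 ± 0.11 with DMSO (adjusted p = 0.00806) and 0.40 ± 0.11 with ATRA (adjusted p = 0.00407). Fosb was lower by 0.42 ± 0.097 with DMSO (adjusted p = 0.000836) and 0.33 ± 0.097 with ATRA (adjusted p = 0.00531), where the call was lost with quantile normalization (-0.19, adjusted p = 0.0527). Atf3 was the member above control in siPRMT1 in all 4 states, and Fosb, first among all genes in ES cells, was never above control in embryoid bodies.

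Dusp1 and Ptgs2 were lower with DMSO, by 0.22 ± 0.071 (adjusted p = 0.00942) and 0.17 ± 0.060 (adjusted p = 0.0147), but neither was called once arrays were centred on their medians (adjusted p = 0.183 and 0.452). With ATRA they were within 0.05 of control. Egr1 was higher with DMSO by 0.32 ± 0.092 (adjusted p = 0.00494) and not called with ATRA. Junb was lower with ATRA by 0.44 ± 0.11 (adjusted p = 0.00221), with 8.44, 8.48 and 8.53 in siPRMT1 and 9.13, 8.56 and 9.07 in siSCR. Ier3 was higher with ATRA by 0.36 ± 0.15 (adjusted p = 0.0424), but its arrays overlapped, and without the third siSCR ATRA array the difference was 0.13 (adjusted p = 0.38).

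Vehicle against untreated day 4 bodies gave few differences in siPRMT1. There 1 member was higher and 1 lower, where 0.461% of all genes were called, 0.306% higher and 0.155% lower. Ier3 had 8.67, 8.75 and 8.72 in siPRMT1 DMSO bodies, against 7.76, 7.76 and 7.79 in siPRMT1 day 4 bodies, a rise of 0.94 ± 0.15 (adjusted p = 0.00475), the third largest of all genes. Atf3 was lower with DMSO by 0.35 ± 0.077 (adjusted p = 0.0433), and this call was lost with any 1 of the 6 arrays left out. Without the 6 siSCR arrays that stood apart, whose spread enters the shared fit, 286 genes were called in place of 92, and 4 members among them, Egr1 (-0.25 ± 0.056, adjusted p = 0.0383) and Dusp1 (0.25 ± 0.057, adjusted p = 0.0384) in addition. In siSCR, where this comparison crosses the border between arrays and 61.1% of all genes were called (30.8% higher and 30.3% lower), 2 members were higher and 5 lower, the largest being Ptgs2 (-0.78 ± 0.060, adjusted p = 4.87e-10) and Ier2 (0.70 ± 0.10, adjusted p = 5.04e-06). The vehicle change differed between the lines, siPRMT1 minus siSCR, for 7 members, 5 higher and 2 lower, where 44.6% of all genes were called (25.1% higher and 19.5% lower).

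The 12 h ATRA response was tested within each line against its own vehicle. In siPRMT1, 1 member was higher and 1 lower, where 12% of all genes were called, 6.05% higher and 5.94% lower. Egr1 had 7.69, 7.62 and 7.62 in siPRMT1 ATRA bodies, against 8.20, 8.14 and 8.19 in siPRMT1 DMSO bodies, and fell by 0.53 ± 0.092 (adjusted p = 0.000317). Atf3 had 9.47, 9.61 and 9.59 in siPRMT1 ATRA bodies, against 9.19, 9.31 and 9.16 in siPRMT1 DMSO bodies, and rose by 0.34 ± 0.077 (adjusted p = 0.00439). In neither gene did the groups overlap. Fos (-0.029 ± 0.11, adjusted p = 0.919) and Fosb (0.14 ± 0.097, adjusted p = 0.437) did not pass the test. Without the 6 siSCR arrays 3462 genes were called in place of 2391, and 5 members among them, Ier3 (-0.29 ± 0.059, adjusted p = 0.00216), Dusp1 (0.18 ± 0.057, adjusted p = 0.0381) and Ptgs2 (-0.18 ± 0.059, adjusted p = 0.0475) in addition.

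In siSCR 1 member was higher with ATRA and 2 lower, where 23.4% of all genes were called, 11.2% higher and 12.2% lower. Egr1, which fell in siPRMT1, moved the same way in siSCR but was not called (-0.25 ± 0.092, adjusted p = 0.0575). It was called in 7 of 15 alternative settings. Ptgs2 had 8.31, 8.43 and 8.41 in siSCR ATRA bodies, against 8.67, 8.74 and 8.70 in siSCR DMSO bodies, and fell by 0.32 ± 0.060 (adjusted p = 0.000716). Ier3 was lower by 0.53 ± 0.15 (adjusted p = 0.0166) and Junb higher by 0.37 ± 0.11 (adjusted p = 0.024), both with overlapping arrays. In a fit of the siSCR DMSO and ATRA arrays alone 0 of the 3 were called (adjusted p = 0.0885 for Ptgs2, 0.257 for Ier3 and 0.249 for Junb), while the calls over all genes went down to 544 in place of 4663 and the fold changes of the 3 were the same. The difference in ATRA response between the lines was called for 0 members, where 3.24% of all genes were called (1.92% higher and 1.32% lower), and Junb came closest (-0.58 ± 0.16, adjusted p = 0.0551). The unadjusted p was under 0.05 for Junb (0.00189), Atf3 (0.0146) and Egr1 (0.0402), as it was for 3478 of 19938 genes.

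Related genes changed with ATRA too, and those named here had the largest called changes of their lists. AP-1 partners were 1 higher and 0 lower of 13 in siPRMT1, and 1 higher and 3 lower in siSCR. Other dual-specificity phosphatases were 3 higher and 1 lower of 10 in siPRMT1, and 4 higher and 2 lower in siSCR. Over all genes, 12% were called in siPRMT1 and 23.4% in siSCR. Jund rose in siPRMT1 by 0.55 ± 0.063 (adjusted p = 2.07e-06) and in siSCR by 0.83 ± 0.063 (adjusted p = 9.44e-09). Dusp9, an ERK phosphatase gene, rose by 1.23 ± 0.067 in siPRMT1 (adjusted p = 2.88e-11) and by 1.54 ± 0.067 in siSCR (adjusted p = 2.9e-12), while Dusp4 fell by 1.17 ± 0.096 in siPRMT1 (adjusted p = 1.81e-08) and by 0.59 ± 0.096 in siSCR (adjusted p = 0.000197). Nr4a1 fell by 0.50 ± 0.057 in siPRMT1 (adjusted p = 1.91e-06) and by 0.52 ± 0.057 in siSCR (adjusted p = 1.4e-06). Ptges rose by 1.14 ± 0.068 in siPRMT1 (adjusted p = 1.24e-10) and by 0.49 ± 0.068 in siSCR (adjusted p = 2.8e-05). The AP-1 target Mmp9 rose in siPRMT1 by 1.299 ± 0.058 (adjusted p = 1.3e-12). Its list was 2 higher and 3 lower of 13 in siPRMT1, and 2 higher and 5 lower in siSCR.

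Over all 8 groups, 8 members had their highest mean in siPRMT1 ES cells and the other two, Ier3 and Ptgs2, in siSCR ES cells. The span between the highest and the lowest group mean was widest for Fos (4.38), Fosb (3.60), Egr1 (3.23) and Ptgs2 (3.17) and narrowest for Junb (0.75) and Ier2 (0.79). For Fos the order was siPRMT1 ES, siSCR ES, siSCR ATRA, siSCR DMSO, siSCR day 4, then siPRMT1 DMSO, ATRA and day 4. Neighbours in that order overlapped within the siSCR bodies and within the siPRMT1 bodies, 4 of 7 pairs, and the gaps between siPRMT1 ES, siSCR ES, siSCR bodies and siPRMT1 bodies held no overlap between neighbours. For Junb all 7 neighbouring pairs overlapped, for Ier2 and Ier3 6 and for Ptgs2 2. Scatter was uneven: 6 members had their largest SD in siSCR ATRA bodies, up to 0.47 for Ier3, and 2 in siSCR DMSO bodies.

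Across the 8 group means, which share the arrays and the contrast of ES cells with bodies, the 45 pairs of members correlated with a median r of 0.68, and 16 pairs had an r above 0.8. The closest were Egr1 with Ptgs2 (0.972), Jun with Egr1 (0.962), Fos with Fosb (0.960) and Fos with Dusp1 (0.958). Within groups, over the deviations of the 24 arrays from their group means, the median r was -0.0014, and Jun with Ier3 (0.909) stood highest. Jun and Ier3 both had their largest SD in siSCR ATRA bodies, 0.25 and 0.47, against median SDs over the groups of 0.074 and 0.079. Those arrays therefore weigh heavily in that r. All these correlations are descriptions with no test.

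Outside the 10, the genes whose 8 group means ran most like those of Fos were Egr2 (r = 0.98), Adssl1 (0.966), Nol3 (0.957), Rbm44 (0.953) and Hspb8 (0.949), out of genes whose group means spanned at least 1 log2 unit. Their spans were smaller than that of Fos, from 1.08 for Nol3 to 1.63 for Adssl1. Egr2, an immediate early zinc finger gene, had a mean of 8.03 in siPRMT1 ES cells and 7.63 in siSCR ES cells, and 6.88 to 7.19 in the 6 groups of bodies. An r over 8 group means that share 1 steep step is a description.

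**Figure D5:**
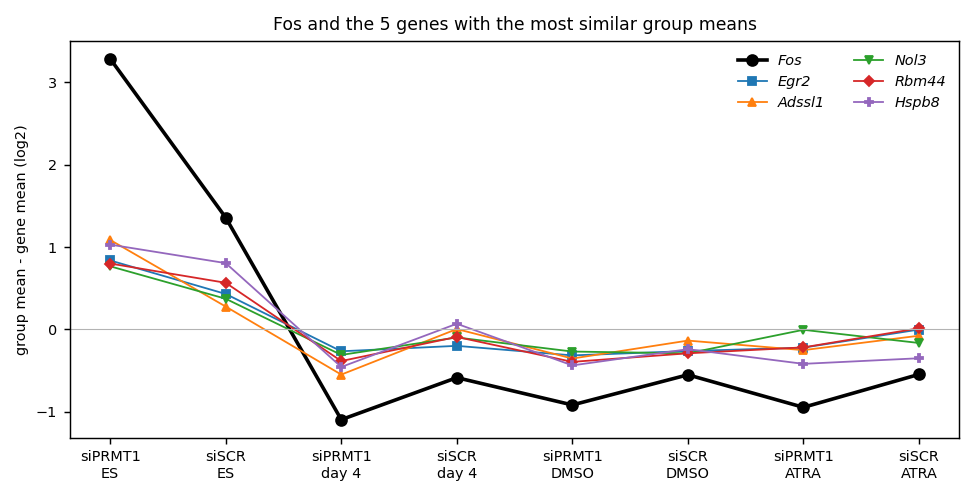
Group means of Fos (black) and of the 5 genes with the highest Pearson r to it over the 8 groups, each minus its own mean over the groups, in log2 units. All 6 genes are highest in siPRMT1 ES cells and second highest in siSCR ES cells, and Fos spans 4.38 log2 units, against 1.63 or less for the other genes.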

How the data were processed

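Total RNA of 24 samples was hybridised to 1-colour Affymetrix whole-transcript arrays, per the labels. The table deposited by the authors holds log2 expression values for 35556 probe sets; the base was read from their range of 2.14 to 14.5, and the method of summarising and normalizing them is not stated in the labels. A platform annotation gave 21789 sets 1 symbol, 1621 several and 12146 none. The brightest set per symbol was kept, which left 19938 genes. One limma 3.58.1 fit (R 4.3.3; lmFit, contrasts.fit, eBayes) of 8 group means used all 24 arrays without a replicate block (16 residual degrees of freedom). Calls were made at a Benjamini-Hochberg adjusted p under 0.05, taken over the 19938 genes within each comparison.

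The members and the gene lists were chosen with earlier results of these data known. Members were named in every comparison, up to 3 called genes per list and comparison by size of change, and 5 genes of like pattern from those whose group means spanned at least 1 log2 unit. Alternatives covered the arrays in the fit, the block, scaling, dim genes, probe sets, the variance model, array weights and each array left out. The number of arrays limits the precision. Promoter sequences are those of RefSeq, GRCm38.p6.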

Additional observations from a re-analysis of the deposited data

Results flagged for a closer look

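The change of untreated day 4 bodies with DMSO differed between the lines for 7 members by the interaction term of the limma fit, where 44.6% of all genes were called. The differences below are siPRMT1 minus siSCR. They were 1.18 ± 0.22 for Ier3 (adjusted p = 0.000135), 0.67 ± 0.13 for Jun (adjusted p = 0.000158), 0.61 ± 0.084 for Ptgs2 (adjusted p = 4.77e-06), 0.47 ± 0.10 for Dusp1 (adjusted p = 0.000736) and 0.38 ± 0.13 for Egr1 (adjusted p = 0.0231). Ier2 (-0.68 ± 0.14, adjusted p = 0.000623) and Fosb (-0.38 ± 0.14, adjusted p = 0.0291) had the opposite sign. The Fosb call held in 14 of 21 alternative settings (adjusted p up to 0.0889) and the Egr1 call in 19 of 21 (up to 0.0786). Each of the 7 differences rests on the siSCR DMSO arrays, which stood apart from the other groups, so for these values array border and group cannot be told apart. Ier3 also differed between siPRMT1 arrays alone, by 0.94 ± 0.15, which does not cross the border.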

How the results depend on the processing

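Of 130 values (10 members in 13 comparisons), 75 were called, and none of these changed sign in any setting that was run. The replicate block changed no call, for example 8 members called in undifferentiated cells with and without it. Deviations of the 84 same-numbered pairs of arrays correlated with r from -0.50 to 0.61 (median 0.012), above 0.1 in 23 pairs. Such a wide range cannot settle whether equal replicate numbers pair the arrays. Arrays scaled to one SD and the fit without 6 siSCR arrays were chosen after seeing the data. Calls were lost for 7 values with quantile normalization, 6 with median centring, 6 with the groups compared alone, 5 with arrays scaled to one SD and 2 with array weights; with each array left out in turn, 47 of 540 called values lost the call. For vehicle against untreated siPRMT1 bodies, 2 members were called, 1 in a fit of the groups compared and with quantile normalization, median centring or scaling to one SD, 5 with array weights (2536 of all genes in place of 92), 4 without the 6 siSCR arrays (286 genes), and 1 to 1 with an array left out. For ATRA against DMSO in siSCR, 3 were called, 0 in a fit of the groups compared (544 of all genes in place of 4663), 1 with array weights (1567 genes), and 1 to 5 with an array left out, namely 1 without siSCR DMSO replicate 1 or siSCR ATRA replicate 3 and 5 without siSCR ATRA replicate 2. For ATRA against DMSO in siPRMT1, 2 were called, 6 in a fit of the groups compared (2995 of all genes in place of 2391), 8 with array weights (7640 genes) and 5 without the 6 siSCR arrays (3462 genes). For the difference in ATRA response, 0 were called, 1 (Junb) without the dimmest 25% of genes or with a trend and robust variance (817 and 928 of all genes in place of 646), and 0 to 1 with an array left out. The cause was not tested. Median centring moved the share of called genes that were higher to 82.9% from 61.9% for the knockdown at day 4 and to 75.0% from 55.5% for body formation in siPRMT1. The number of arrays, 3 a group, limits what can be seen.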
